A study of Mus musculus with 8 samples.

Results

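The transcripts of 10 secreted products that colonic goblet cells make were followed through the epithelium of colon assembloids, colon organoids and native colon. They are Muc2, Fcgbp, Zg16, Clca1, Spink4, Agr2, Tff3, Reg4, Klk1 and Sval1, which are 10 of the 32285 genes in the deposited count tables. They were chosen by name as secreted goblet cell products, with earlier results of these data known. All 10 passed the filter on low counts, as did 19339 genes in all. The study grew crypt epithelium of C57BL/6 mice (male, 6 to 12 weeks old) alone in Matrigel, in full medium with Wnt activators, R-spondin 1 and noggin (organoids). For assembloids, organoids already grown in this way were packed together with primary colon stromal cells and cultured further in medium without these factors. The epithelium of both cultures had thus been exposed to them. Both were set beside crypts taken from the colon (tissue). Each group had 2 epithelial libraries of droplet-based 3′ single-cell RNA sequencing, and 2 further libraries of assembloid stroma were not used here. The library titles name no deletion or transgene. The stromal cells had been cultured with serum before assembly, and the study calls the 2 libraries of a group biological replicates without naming the mice behind each epithelial library, so that p-values measure the spread between these libraries only.

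Goblet cells fill their upper part with packed mucin granules and release them into the gut lumen, where the mucin swells into a gel that keeps bacteria away from the epithelium. Muc2 is the gel-forming mucin of the colon, Fcgbp is bound into the same network, and Clca1 is a secreted protease that remodels it. Zg16 is a lectin that binds Gram-positive bacteria, Tff3 is a trefoil peptide linked to epithelial repair, Reg4 is a lectin of the Reg family that enteroendocrine cells also make, Spink4 belongs to the Kazal-type protease inhibitors, and Klk1 is tissue kallikrein, a serine protease. Agr2 is a disulfide isomerase of the endoplasmic reticulum that mucin folding requires.

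The 10 genes lie on 6 chromosomes of GRCm38 and are protein coding in GENCODE M21. Reg4 (chromosome 3, 98222156 to 98236748) and Clca1 (chromosome 3, 145003817 to 145032776) share a chromosome but not a neighbourhood. Fcgbp (chromosome 7, 28071236 to 28120862), Klk1 (chromosome 7, 44225360 to 44229618), Zg16 (chromosome 7, 127050156 to 127087328) and Muc2 (chromosome 7, 141690340 to 141754693) are spread along chromosome 7. Spink4 is on chromosome 4 (40920052 to 40931395), Sval1 on chromosome 6 (41951630 to 41956098), Agr2 on chromosome 12 (35992907 to 36004087) and Tff3 on chromosome 17 (31125306 to 31129646). RefSeq promoter windows of GRCm38.p6 were held for 6 of the 10 genes (Muc2, Fcgbp, Agr2, Reg4, Klk1, Sval1). The 250 bases before the start are printed for Muc2, the mucin that defines the cells, and for Reg4, Sval1 and Klk1, the 3 of these 6 genes that stood furthest below tissue in assembloids, all on the plus strand and with matches to 5 short motifs in capitals.

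Muc2 (chr7:141690090-141690339): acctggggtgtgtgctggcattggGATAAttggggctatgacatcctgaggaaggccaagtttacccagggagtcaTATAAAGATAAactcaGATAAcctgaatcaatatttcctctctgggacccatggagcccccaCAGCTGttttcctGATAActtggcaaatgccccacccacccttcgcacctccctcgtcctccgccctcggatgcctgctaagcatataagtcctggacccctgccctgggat
Reg4 (chr3:98221906-98222155): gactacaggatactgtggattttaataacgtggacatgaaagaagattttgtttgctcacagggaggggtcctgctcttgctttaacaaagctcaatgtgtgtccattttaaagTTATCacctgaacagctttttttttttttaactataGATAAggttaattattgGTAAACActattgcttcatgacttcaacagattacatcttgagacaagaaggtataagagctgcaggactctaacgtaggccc
Sval1 (chr6:41951378-41951627): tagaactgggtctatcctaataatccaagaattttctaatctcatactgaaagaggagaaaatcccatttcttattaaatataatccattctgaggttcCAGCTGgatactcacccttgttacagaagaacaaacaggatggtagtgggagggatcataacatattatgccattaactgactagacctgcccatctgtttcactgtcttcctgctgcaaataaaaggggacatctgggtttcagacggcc
Klk1 (chr7:44225110-44225359): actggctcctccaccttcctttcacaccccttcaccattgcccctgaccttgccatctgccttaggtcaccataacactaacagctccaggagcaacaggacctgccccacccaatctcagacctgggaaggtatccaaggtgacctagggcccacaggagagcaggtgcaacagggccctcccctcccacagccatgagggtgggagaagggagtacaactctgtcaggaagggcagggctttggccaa

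The motifs, searched on both strands, were GATAA (the GATA core), CAGCTG (an E-box), TGTTTAC (the forkhead core), TTTATG (a caudal core) and TATAAA (the TATA box). The Muc2 window held 4 copies of GATAA, between 226 and 95 bases before the start, and TATAAA directly ahead of the second of them, with CAGCTG at 112 to 107 bases. Reg4 held GATAA on both strands and TGTTTAC on the minus strand, Sval1 held CAGCTG, and the Klk1 window held none of the 5. Windows with GATAA made up 22.6% of the 32851 in the table, those with CAGCTG 13.0%, with TATAAA 12.4%, with TTTATG 10.8% and with TGTTTAC 3.17%. A match describes the letters alone.

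The libraries differed in depth and purity, and this bears on all values below. Between 4307 and 28186 epithelial cells per library passed the limits used (no fewer than 500 genes, no more than 10% mitochondrial UMIs, where a UMI stands for 1 captured transcript molecule), with 36950385 to 187583982 UMIs in all. The limits are those described for stromal cells in the methods. The study's own filter of epithelial cells is not given in the sources used here, and these limits keep more assembloid and fewer tissue cells than the study did, which bears on every share of cells. Passing barcodes were 38.7% and 25.4% of those deposited in tissue against 55.1% to 89.3% in the cultures. Non-epithelial cells, taken out beforehand, numbered 1224 and 791 in the assembloids and 0 to 3 in the other libraries. Any 2 libraries shared 6 to 69 cell barcodes. Levels are given as CPM, the UMIs of a gene scaled to 1000000 UMIs of the cells named, and 3′ counting needs no correction for transcript length.

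Over all epithelial cells, every one of the 10 products was lower in organoids than in tissue, and all were lower in organoids than in assembloids. Assembloids lay in between, with 9 of 10 products lower than in tissue, at mean levels 3.78-fold (Agr2) to 71.4-fold (Klk1) under those of tissue. In the edgeR quasi-likelihood test over the 6 libraries (adjusted p under 0.05), 23.3% of all genes tested were called lower in assembloids than in tissue, 23% lower in organoids than in tissue and 29.1% lower in organoids than in assembloids, and 27.0%, 24.4% and 24.8% were called higher. The median log2 difference of the 10 was -3.95 for assembloids against tissue, -7.11 for organoids against tissue and -3.07 for organoids against assembloids, beside medians over all genes of 0.03, 0.06 and -0.01. The 3 comparisons share their libraries. In such sums, fewer goblet cells and less transcript per goblet cell cannot be told apart.

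Among the structural proteins of the gel, Muc2 stood at 170 and 407 CPM in the 2 assembloid libraries, at 6.29 and 30.8 CPM in the organoid libraries and at 5624 and 6177 CPM in the tissue libraries. The 3 groups did not overlap. Muc2 was lower in assembloids than in tissue by 4.02 on the log2 scale of the fit (log2 difference -4.02, SE 0.67, edgeR adjusted p = 0.00154). Fcgbp read 51.7 and 117 CPM in assembloids, 6.90 and 10.8 CPM in organoids and 815 and 972 CPM in tissue, with a log2 difference of -3.07 (SE 0.36) between assembloids and tissue. Clca1, the protease of this network, reached 7.08 and 18.7 CPM in assembloids, 0.485 and 0.516 CPM in organoids and 536 and 680 CPM in tissue.

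The lectins separated organoids from assembloids most and least. Zg16 stood at 130 and 246 CPM in assembloids and at 3213 and 3836 CPM in tissue, but at 0.576 and 0.817 CPM in organoids, from 108 and 76 UMIs. Its log2 difference between organoids and assembloids was -8.20 (SE 0.45, edgeR adjusted p = 1.94e-05), the widest of the 10. Reg4 read 11.6 and 38.0 CPM in assembloids, 5.72 and 11.9 CPM in organoids and 763 and 809 CPM in tissue, and assembloid library 1 and organoid library 2 were close to level. The log2 difference of Reg4 between organoids and assembloids was -1.63 (SE 0.46, edgeR adjusted p = 0.0166), and it was not called without assembloid library 2 (-0.68) or without organoid library 1 (-1.33).

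Klk1 and Sval1 had the widest gap between assembloids and tissue. Klk1 stood at 13.3 and 28.9 CPM in assembloids, 3.43 and 3.37 CPM in organoids and 1462 and 1553 CPM in tissue, a log2 difference of -5.82 (SE 0.41, edgeR adjusted p = 2.77e-05) for assembloids against tissue. Sval1 stood at 8.85 and 36.7 CPM in assembloids, 5.83 and 6.32 CPM in organoids and 1433 and 1738 CPM in tissue, a log2 difference of -5.81 (SE 0.61). Its difference between organoids and assembloids (-1.98, SE 0.52, edgeR adjusted p = 0.012) was not called without assembloid library 2 (-0.76) or without either organoid library (-2.11 and -1.84). Both genes have close relatives, with which reads could be shared. Klk1b5 was at 1.25 and 1.06 CPM and Sval3 at 3.21 and 3.71 CPM in tissue.

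Spink4, Agr2 and Tff3 kept the most of their tissue level in assembloids. Tff3 stood at 765 and 1328 CPM in assembloids and at 2092 and 1801 CPM in tissue, and its log2 difference of -0.54 (SE 0.30) was not called (edgeR adjusted p = 0.166). With scaling by library size alone it was -0.90 and with at most 5% mitochondrial UMIs -0.80, both called. Agr2 stood at 536 and 1297 CPM in assembloids, 153 and 130 CPM in organoids and 2962 and 3970 CPM in tissue, a log2 difference of -1.59 (SE 0.42, edgeR adjusted p = 0.0137) for assembloids against tissue. That call was lost without assembloid library 1 (-1.13), without tissue library 2 (-1.36) and with up to 20% mitochondrial UMIs (-1.11). Spink4 stood at 837 and 1423 CPM in assembloids, 58.7 and 117 CPM in organoids and 5862 and 6047 CPM in tissue.

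**Figure D1:**
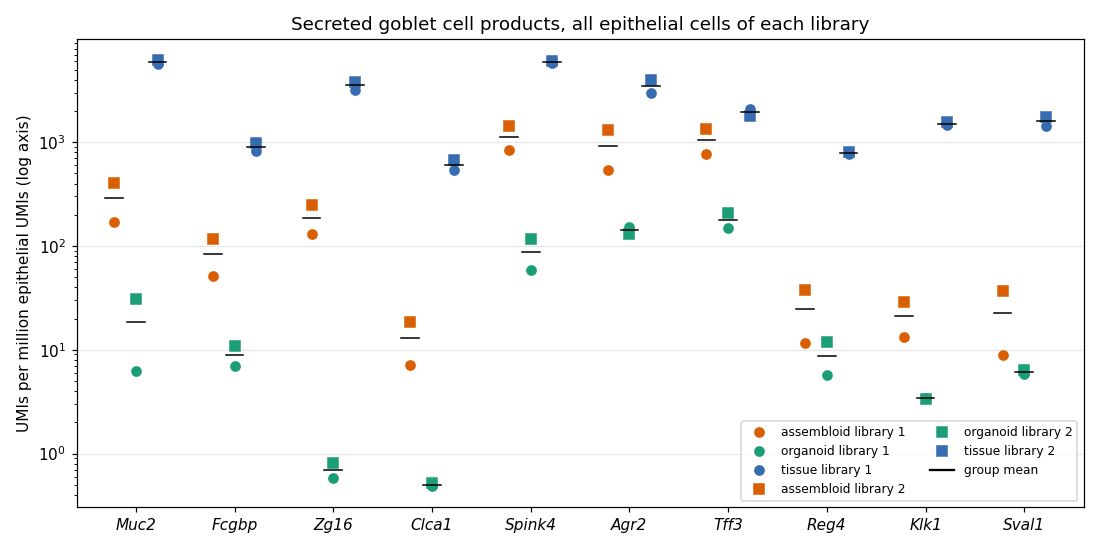
Each point is 1 library and each column group 1 product, with CPM of all epithelial cells on a log axis and a black line at the mean of the 2 libraries. Tissue lies above both cultures for all 10 products, Zg16 drops to 0.576 and 0.817 in organoids, and Tff3 has the narrowest gap between assembloids and tissue.

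Cells with at least 2000 UMIs were called goblet-gated where Muc2 and Spink4 together made at least 1% of the UMIs. Because this gate is itself a threshold on product content, a goblet cell with little Muc2 and Spink4 falls outside it. The gate therefore cannot fully separate the number of goblet cells from their content. Its shares count gated cells and are no measure of all goblet cells. The gate held 672 and 895 cells in tissue, 396 and 288 in assembloids and 12 and 16 in organoids. As a share of cells of that depth these were 27.5% (exact 95% binomial interval 25.8 to 29.4) and 32.3% (30.6 to 34.1) in tissue, 1.86% (1.68 to 2.05) and 4.69% (4.17 to 5.25) in assembloids, and 0.252% (0.130 to 0.440) and 0.347% (0.198 to 0.562) in organoids. The means were 29.9% ± 3.39, 3.27% ± 2.00 and 0.299% ± 0.0670 (SD, n = 2 libraries), and the groups did not overlap. With the gate on Muc2 alone they were 26.4%, 1.32% and 0.0863%. An exact two-sided permutation test of 2 against 2 libraries cannot go below p = 0.333, so none was run, and the intervals cover counting error only. Cells whose share lay within 0.8% to 1.25%, on either side of the threshold, numbered 75 and 293 in tissue, 213 and 63 in assembloids and 6 and 4 in organoids.

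Goblet markers that were not used for this gate were higher inside it in every library. The summed level of 9 of them (Ern2, Rep15, Spdef, Creb3l1, Capn9, Tpsg1, Bcas1, Fer1l6 and Galnt12) was 1855 and 1865 CPM in gated tissue cells against 338 and 346 CPM outside the gate. In assembloids it was 622 and 947 CPM inside against 109 and 123 CPM outside, and in organoids 1213 and 1467 CPM inside against 52.1 and 71.1 CPM outside. Enteroendocrine markers summed to at most 60.4 CPM in gated cells. Macrophage markers summed to 60.7 and 41.6 CPM in gated assembloid cells and to 0.474 and 1.19 CPM in gated tissue cells, and cycling markers to 721 and 485 CPM in gated organoid cells, 272 and 199 CPM in gated assembloid cells and 295 and 289 CPM in gated tissue cells. Fibroblast markers summed to 164 and 87.4 CPM in the gated assembloid cells, to 310 and 77.5 CPM in the other epithelial cells of the same libraries and to at most 0.0850 CPM in gated cells of the other groups. Stem cell markers summed to 434 and 282 CPM in gated organoid cells, 17.8 and 9.28 CPM in gated assembloid cells and 71.9 and 68.6 CPM in gated tissue cells, and colonocyte markers to 505 and 393 CPM, 1335 and 1511 CPM, and 698 and 840 CPM. Ceacam1 carried most of the colonocyte sums, as the only 1 of the 7 markers with a UMI in gated organoid cells and with 1004 and 1205 CPM in gated assembloid cells against 605 and 637 CPM in gated tissue cells. Car1 was also higher in gated assembloid cells, at 286 and 281 CPM against 40.2 and 92.2 CPM in gated tissue cells. Outside the gate of the same assembloid libraries, Car1 was higher, at 1240 and 2047 CPM, and Ceacam1 lower, at 519 and 669 CPM. Macrophage markers summed there to 73.5 and 49.2 CPM. Outside the gate of organoids, stem cell markers summed to 467 and 633 CPM and cycling markers to 1278 and 1194 CPM. Slc26a3, Car4 and Slc37a2 were lower in gated assembloid than in gated tissue cells, as with 3.32 and 2.88 CPM against 16.2 and 36.5 CPM of Slc26a3. The part of these lists in the results was not tested.

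A second gate, on the same 9 goblet markers (together at least 0.2% of UMIs) and none of the 10 products, picked largely the same cells in tissue and largely others in assembloids. Of its 366 and 416 cells in tissue, 317 and 376 were also goblet-gated. Of its 60 and 43 cells in assembloids, 9 and 16 were. The mean share of cells in it was 15.0% in tissue, 0.491% in assembloids and 0.0752% in organoids. Values from both gates are therefore set side by side where they part.

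The gated cells held most of the product transcripts of tissue. They carried 28.4% and 33.6% of all UMIs there, but 91.0% and 87.5% of those of Zg16 and 92.3% and 90.0% of those of Sval1. Klk1 was the most widely spread, with 56.9% and 60.5%. In assembloids the gated cells carried 2.08% and 5.78% of all UMIs and, of the products that did not set the gate, 28.8% (Clca1) to 55.0% (Sval1) of the UMIs in library 1 and 59.8% (Agr2) to 86.1% (Sval1) in library 2. In organoids they carried 0.164% and 0.304% of all UMIs, 22.4% and 41.7% of the Reg4 UMIs and 1.85% and 1.49% of the few Zg16 UMIs. The Zg16 shares there rest on 2 and 1 gated UMIs.

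Within goblet-gated cells, the order of the groups changed with the product. Of the 8 products that did not set the gate, 6 were lower in assembloids than in tissue (Fcgbp, Zg16, Clca1, Reg4, Klk1 and Sval1) and 2 were higher (Tff3 and Agr2) in an edgeR fit of the 4 assembloid and tissue libraries. The same fit called 23.9% of 13088 genes lower and 26.7% higher. The median log2 difference was -1.79 over the 8 and -0.03 over all genes. This fit uses TMM scaling, which sets the typical gene near 0. With scaling by library size alone the median gene moved to -0.62, the share of calls that were higher fell from 52.8% to 22.1%, and Agr2 was no longer called (log2 difference 0.30). In the fit over all epithelial cells that share went from 53.7% to 38.8% for assembloids and from 51.5% to 41.3% for organoids against tissue.

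Klk1, Sval1 and Clca1 were the furthest below tissue in gated assembloid cells. Klk1 stood at 247 and 329 CPM in assembloids and at 2900 and 2810 CPM in tissue (log2 difference -2.71, SE 0.20, edgeR adjusted p = 0.000109). Sval1 stood at 236 and 549 CPM against 4615 and 4700 CPM (-2.98, SE 0.36, edgeR adjusted p = 0.000771). Clca1 stood at 97.2 and 233 CPM against 1694 and 1795 CPM (-2.81, SE 0.35, edgeR adjusted p = 0.000907). The libraries of the groups lay far apart for all 3 genes, which with Reg4 were called lower under all 18 alternatives tried. Reg4 stood at 210 and 401 CPM against 2487 and 2232 CPM (-2.36, SE 0.28).

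Zg16 and Fcgbp had smaller differences under the Muc2 and Spink4 gate. Zg16 stood at 2306 and 3386 CPM in gated assembloid cells and at 9951 and 10042 CPM in gated tissue cells (log2 difference -1.22, SE 0.23, edgeR adjusted p = 0.00464), and the call was lost without tissue library 1 at a difference of -1.23. Fcgbp stood at 843 and 1255 CPM against 2495 and 2591 CPM (-0.68, SE 0.21, edgeR adjusted p = 0.0308). Its call was lost under 6 of 18 alternatives, among them leaving out either tissue library and a gate at 2%. Under the second gate all 6 of these products were lower and further from tissue, at -1.72 for Fcgbp, -3.54 for Reg4, -3.67 for Zg16, -3.87 for Clca1, -4.11 for Klk1 and -5.07 for Sval1, so that Zg16 no longer stood apart from Reg4 and Clca1. Of the 60 and 43 assembloid cells in that gate only 9 and 16 were also goblet-gated, so these differences describe largely other cells.

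Tff3 went the other way. It stood at 13711 and 14800 CPM in gated assembloid cells against 6089 and 4425 CPM in gated tissue cells (log2 difference 2.04, SE 0.26, edgeR adjusted p = 0.00092). Under the second gate the difference was 0.41 (SE 0.43, edgeR adjusted p = 0.518) and not called. Agr2 stood at 7956 and 13440 CPM against 8002 and 9365 CPM, and its assembloid libraries enclosed those of tissue on this scale. Its fitted log2 difference of 0.89 (SE 0.28, edgeR adjusted p = 0.0319) was not called under 6 of 18 alternatives, and under the second gate it changed sign (-0.58, SE 0.54, edgeR adjusted p = 0.462).

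**Figure D2:**
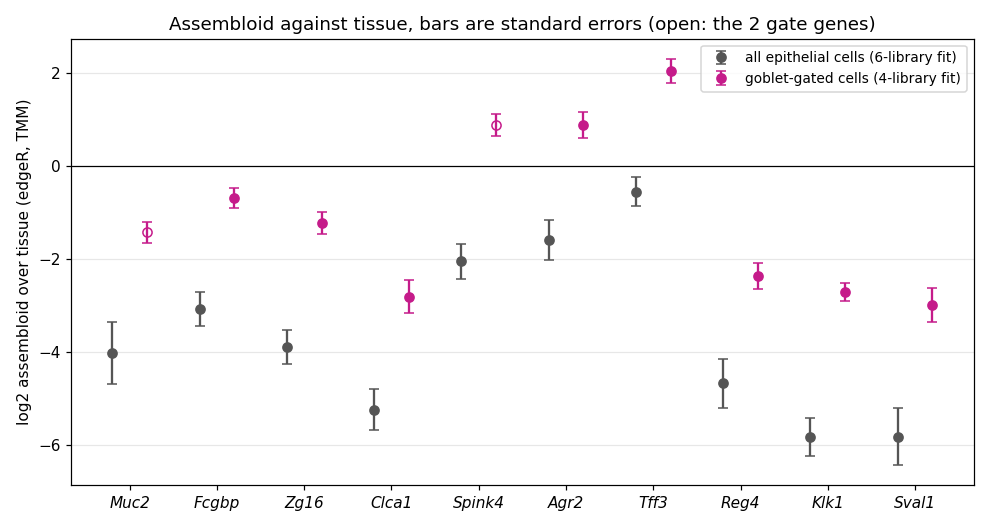
Points are log2 differences of assembloids over tissue from edgeR with TMM scaling and bars are standard errors, in grey for all epithelial cells and in pink for goblet-gated cells, with open points for the 2 gate genes, which are shown without a test. Tff3 lies at 2.04 and Sval1 at -2.98 in gated cells, while all 10 products lie below 0 over all epithelial cells.

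Under their own gate the 2 gate genes are described without a test. Muc2 stood at 4031 and 5236 CPM in gated assembloid cells, 1321 and 4535 CPM in gated organoid cells and 19652 and 17863 CPM in gated tissue cells. Spink4 stood at 21429 and 20309 CPM in assembloids, 15542 and 16583 CPM in organoids and 18556 and 15905 CPM in tissue. Gated cells of the cultures thus passed the gate mainly through Spink4, and those of tissue through both genes. The second gate, which uses neither gene, gave a log2 difference of -2.90 (SE 0.41, edgeR adjusted p = 0.00416) for Muc2 and -1.07 (SE 0.35, edgeR adjusted p = 0.0691) for Spink4 between assembloids and tissue.

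The organoid values rest on 12 and 16 cells, too few for the fit, and carry exact 95% Poisson intervals that cover counting error only. Shares of genes are given here over the 13088 genes of the gated fit, which were filtered on assembloid and tissue libraries without the organoid ones. Of the 8 products, 6 were lower in both organoid libraries than in both tissue libraries, beside 38.9% of these genes, and Tff3 was higher, beside 24.6%. Against assembloids 4 were lower in both (Fcgbp, Zg16, Clca1 and Tff3), beside 22.6% of these genes, and 2 were higher (Reg4 and Sval1), beside 39.1%. Under the second gate, which held 2 and 5 organoid cells, the 4 became 1. The share of all genes was not taken under that gate, so this count cannot be read alone. Zg16 was nearly absent, with 2 and 1 UMIs or 6.52 CPM (0.790 to 23.6) and 3.70 CPM (0.0938 to 20.6). Clca1 read 81.5 CPM (52.8 to 120) and 11.1 CPM (2.29 to 32.5), from 25 and 3 UMIs. The first of these Clca1 intervals covered the 97.2 CPM of assembloid library 1.

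Reg4 reached 783 CPM (687 to 888) and 1634 CPM (1485 to 1794) in gated organoid cells, above both assembloid libraries. Sval1 read 825 CPM (727 to 933) and 641 CPM (549 to 744) there. Klk1 read 271 CPM (216 to 336) and 322 CPM (258 to 398), which overlapped the assembloid libraries. Tff3 read 9245 CPM (8908 to 9592) and 8354 CPM (8013 to 8706), between the other groups, and Agr2 11994 CPM (11610 to 12388) and 8321 CPM (7980 to 8672). Zg16 thus lay furthest from its assembloid level in organoids, and Klk1 overlapped with its own. Both Agr2 values lay between the 7956 and 13440 CPM of the assembloid libraries.

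**Figure D3:**
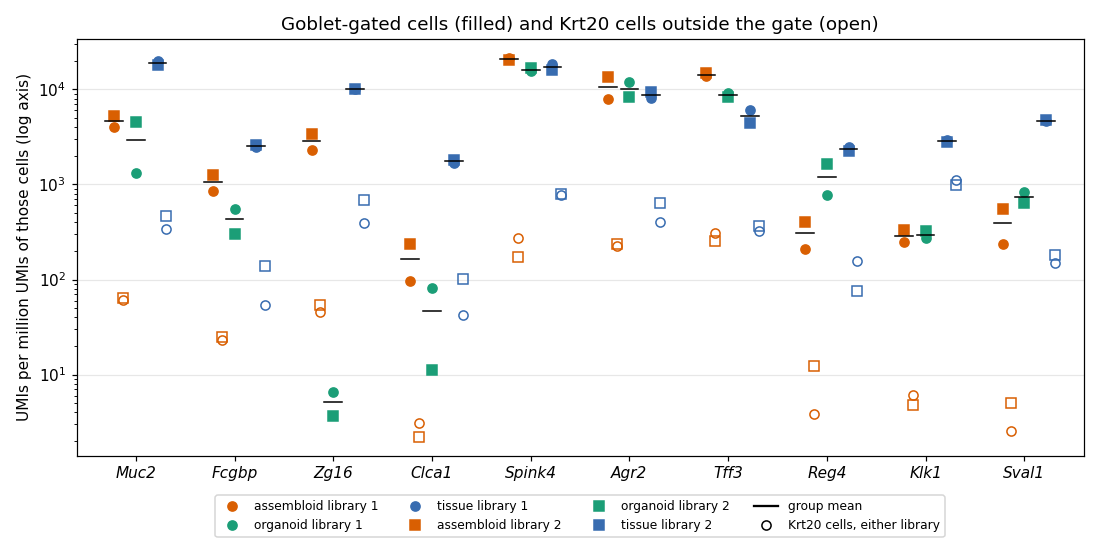
Filled points are the levels in goblet-gated cells of each library and open points those in Krt20 cells outside the gate for assembloids and tissue, as CPM of those cells on a log axis, with black lines at the means of 2 libraries. Klk1 in tissue has the smallest distance between filled and open points, and organoid Zg16 lies at 6.52 and 3.70.

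The make-up of the product pool differed between the groups, in cells that were selected on the sum of Muc2 and Spink4, so that the size of the pool and the shares of these 2 genes are partly set by the gate. The 10 products together were 7.64% and 7.17% of the UMIs of gated tissue cells, 5.11% and 5.99% in assembloids and 4.06% and 4.07% in organoids. In tissue, Muc2 made up 25.7% and 24.9% of that pool, Spink4 24.3% and 22.2%, Zg16 13.0% and 14.0% and Tff3 7.97% and 6.17%. In assembloids, Spink4 made up 42.0% and 33.9%, Tff3 26.8% and 24.7%, Agr2 15.6% and 22.4% and Muc2 only 7.89% and 8.74%. In organoids the same 3 products led, with Spink4 at 38.3% and 40.7%, Agr2 at 29.5% and 20.4% and Tff3 at 22.8% and 20.5%.

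**Figure D4:**
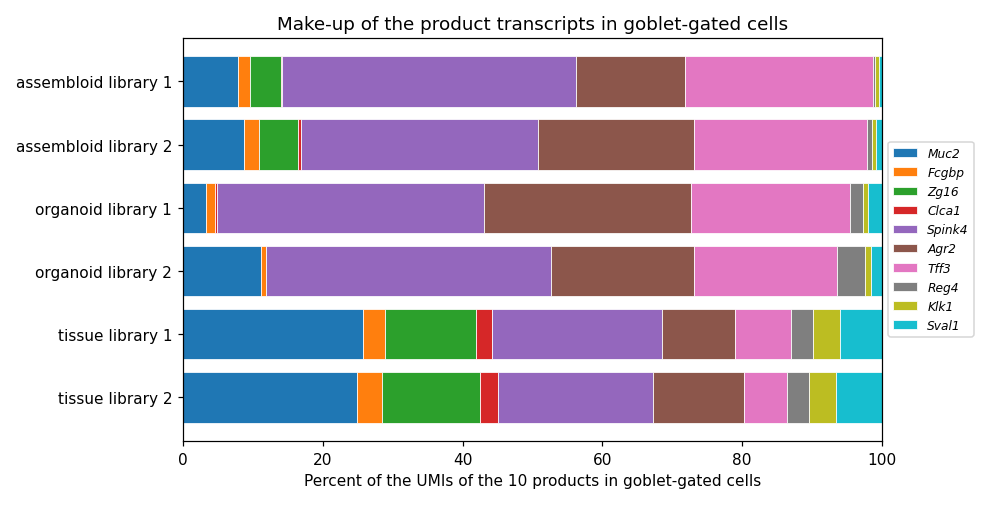
Each bar is 1 library and splits the UMIs of the 10 products in its goblet-gated cells into percent per product. Tff3 takes 7.97% and 6.17% in tissue and 26.8% and 24.7% in assembloids, and Zg16 13.0% and 14.0% against 4.52% and 5.65%, while the shares of Muc2 and Spink4 are partly set by the gate on their sum.

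The number of different products per cell was counted after each cell was thinned to 2000 UMIs. Of the 8 products outside the gate, a gated tissue cell showed a median of 6 in both libraries, a gated assembloid cell 4 and 5 and a gated organoid cell 4 in both. Krt20 cells outside the gate, as the background of this count, showed a median of 3 in both tissue libraries, 1 in both assembloid libraries and 0 in both organoid libraries, the last from 8 and 5 cells, so the background differed between tissue and assembloids by as much as the gated cells did. All 8 were seen in 113 of 672 and 159 of 895 gated tissue cells, in 0 of 396 and 3 of 288 gated assembloid cells in none of the 12 and 16 gated organoid cells, and in 0 of 331 and 6 of 423 tissue Krt20 cells. Clca1 was detected in 41.2% (37.5 to 45.0) and 49.7% (46.4 to 53.0) of thinned gated tissue cells and in 7.58% (5.17 to 10.6) and 14.9% (11.0 to 19.6) of thinned gated assembloid cells. Zg16 was detected in 69.3% and 76.0% of them in tissue and 30.8% and 39.9% in assembloids. No share of Krt20 cells is set beside these values, and for Muc2, given below, that share was higher in tissue. Gated cells had median depths of 17719 and 10310 UMIs in tissue and of 5389 and 19686 UMIs in assembloids before thinning.

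Krt20 cells outside the gate served as the background of these values, in which free transcripts in the droplets and a low expression of their own cannot be told apart. These cells were not alike in both groups. Krt20 cells of tissue held the colonocyte transporter Slc26a3 at 1088 and 781 CPM and Car4 at 1190 and 717 CPM, those of assembloids Slc26a3 at 45.8 and 64.9 CPM and Car4 at 10.0 and 6.39 CPM, and cycling markers summed to 56.3 and 78.2 CPM in tissue and 381 and 235 CPM in assembloids. In assembloids the 8 products that did not set the gate stood in 2225 and 955 such cells at 0.920% to 3.15% of their gated level. In tissue, those other than Klk1 stood in 331 and 423 such cells at 2.14% to 8.29% of their gated level. Muc2 and Spink4 are capped in cells outside the gate by the gate itself, so their levels there are no free measure of background. With the Krt20 cells that passed the gate kept in, the median over the 8 products outside the gate went from 5.34% to 20.2% in tissue and from 2.01% to 2.51% in assembloids. The share of thinned Krt20 cells with at least 1 UMI of Muc2 was 36.9% and 54.1% in tissue, at median depths of 16856 and 14366 UMIs, and 10.9% and 8.59% in assembloids, at 8003 and 16036 UMIs. Non-epithelial cells of the assembloids, a second class that should lack these genes, held 36.5 and 87.8 CPM of Muc2 and 120 and 136 CPM of Spink4. The shares of tissue cells with a UMI of a product are therefore read against a high background.

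Klk1 departed from that background in tissue. It stood at 1107 and 987 CPM in the Krt20 cells of tissue, 38.2% and 35.1% of its gated level, and was detected in 67.1% (61.7 to 72.1) and 72.3% (67.8 to 76.6) of them after thinning. Over all tissue cells outside the gate it stood at 873 and 925 CPM and at 2.41 and 1.53 times the Muc2 level, against 0.148 and 0.157 times inside the gate. In assembloid Krt20 cells it stood at 6.08 and 4.81 CPM, 2.46% and 1.46% of the gated level there. Muc2 set the gate, and the ratio to Muc2 was also higher outside it for other products, as for Agr2 (2.34 and 1.94 against 0.407 and 0.524) and Zg16 (1.08 and 1.20 against 0.506 and 0.562). Outside the gate, tissue Klk1 was higher in Krt20 cells than in cycling cells, at 477 and 455 CPM. It was also higher there than in enteroendocrine-gated cells, at 201 and 345 CPM. The remaining cells outside the gate are not given apart. In tissue library 2 the 987 CPM of Krt20 cells was near the 925 CPM of all cells outside the gate.

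As a share of its gated level Agr2 was the next highest outside the gate, at 10.6% and 12.5% or 848 and 1172 CPM in tissue, and was at 970 and 1413 CPM in cycling cells against 401 and 633 CPM in Krt20 cells. Reg4 was high in enteroendocrine-gated cells (Chga and Chgb at least 0.2% of UMIs), with 309 and 970 CPM in 151 and 41 assembloid cells and 1104 and 327 CPM in 39 and 81 tissue cells. In both assembloid libraries this was above the goblet-gated level of 210 and 401 CPM. Muc2 stood at 268 and 44.6 CPM in the same enteroendocrine-gated assembloid cells and at 300 and 499 CPM in those of tissue.

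Most of the products varied together from goblet cell to goblet cell, in more than 1 set. Across the 672 and 895 gated tissue cells, thinned to equal depth, Fcgbp, Zg16, Clca1 and Tff3 rose and fell together, with a Spearman rho between 0.41 and 0.65 in the first library and between 0.42 and 0.58 in the other. Spink4, Agr2 and Klk1 formed another such set, with rho between 0.54 and 0.65 and between 0.56 and 0.69, of which only the pair Agr2 and Klk1 (0.54 and 0.56) is free of the gate gene Spink4. Between the sets, rho was -0.15 to 0.22 and -0.15 to 0.18. Both sets were picked after the values were seen, and the cells of a library share 1 preparation. Sval1 correlated with members of both sets, with rho of 0.43 and 0.43 to Zg16 and 0.55 and 0.55 to Klk1. Reg4 was placed in neither set, with rho of 0.53 and 0.49 to Spink4 but 0.16 and 0.23 to Agr2 and 0.27 and 0.30 to Klk1. Muc2 correlated negatively with Tff3 at -0.52 and -0.39, with Reg4 at -0.39 and -0.28, and with Spink4 at -0.31 and -0.26. The gate on the sum of Muc2 and Spink4 bears on every value that involves either of them.

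In assembloids, with 396 and 288 gated cells and lower counts of most products, the first set had rho of 0.18 to 0.50 and 0.30 to 0.38, while rho between the sets was -0.07 to 0.55 and -0.15 to 0.28. The second set had 0.19 to 0.49 and 0.05 to 0.41. The sets were thus not separate in library 1. In library 2 the first set lay narrowly above all values between the sets, while the second set overlapped them. Agr2 and Tff3 had the highest rho between sets, at 0.55 in library 1 and 0.28 in library 2. Spink4 and Agr2 had 0.49 and 0.41, while Klk1 had 0.24 and 0.07 with Spink4. Muc2 and Tff3, which were opposed in tissue, had a rho of 0.44 and 0.07. Weak values in such sparse counts are no finding.

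**Figure D5:**
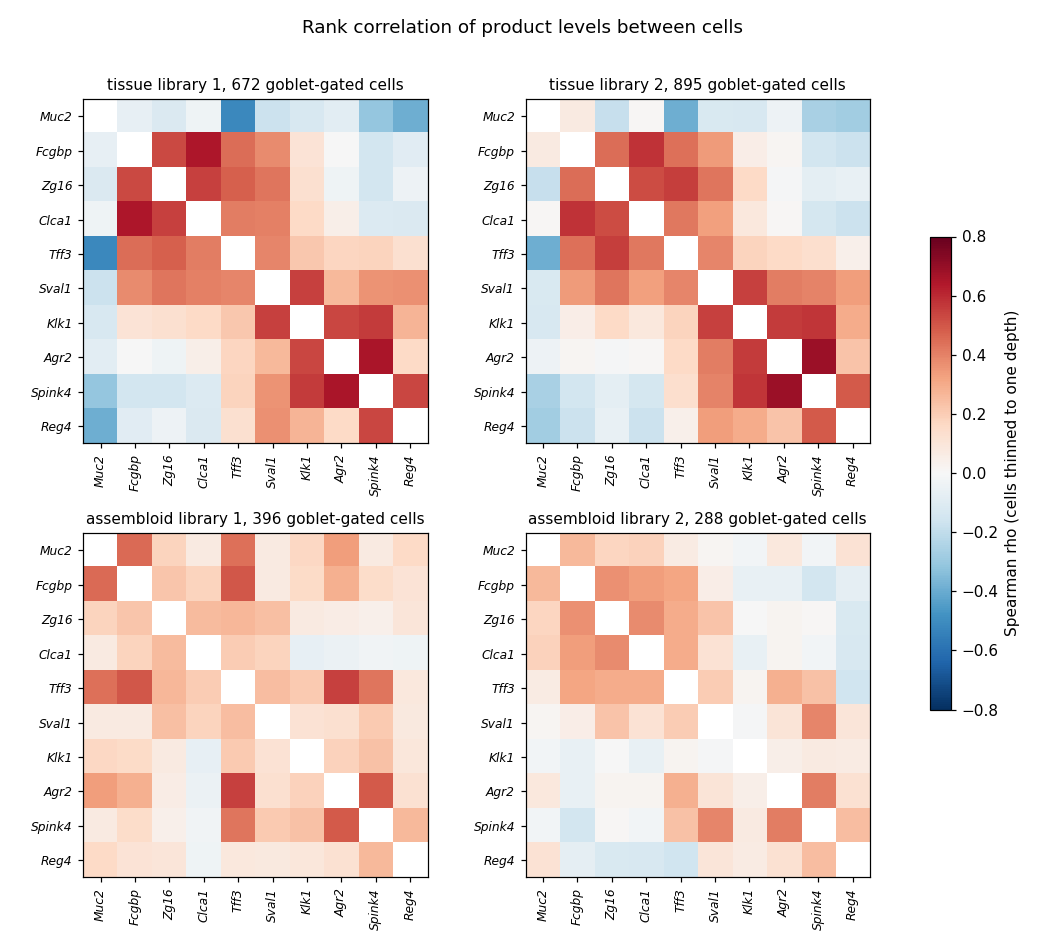
Each panel gives Spearman rho between product levels over the goblet-gated cells of 1 library, thinned to equal depth, on a colour scale from -0.8 (blue) to 0.8 (red). Both tissue panels show the set Fcgbp, Zg16, Clca1 and Tff3 and the set Klk1, Agr2 and Spink4, with Muc2 blue against Tff3, and the assembloid panels are paler.

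In tissue, the 4 genes of the first set were highest in gated cells that also carried Krt20 and lowest in cycling ones. Zg16 stood at 81335 and 37827 CPM in the 15 and 18 gated cells with Krt20, at 511 and 768 CPM in the 34 and 61 cycling gated cells and at 9151 and 10326 CPM in those with neither. Clca1 ran from 398 and 710 CPM in cycling to 11949 and 6463 CPM in Krt20 gated cells, Fcgbp from 1085 and 1062 CPM to 12304 and 7096 CPM, and Tff3 from 2786 and 2220 CPM to 27507 and 15207 CPM. Spink4 stood at 10024 and 14102 CPM in the cycling and 11860 and 9282 CPM in the Krt20 gated cells, both below the 19364 and 16263 CPM of the rest. The gated Krt20 cells had median depths of 14115 and 8002 UMIs, below those of all gated cells. In assembloid library 1, with 13 gated cells with Krt20, Zg16 (3106 CPM against 2383 CPM in those with neither) and Fcgbp (1051 against 871 CPM) followed this order and Clca1 (0 against 105 CPM) and Tff3 did not. In assembloid library 2 all 4 genes were highest in the gated cells with Krt20, of which there were 2. These are sums over few cells of 2 libraries, given without a test.

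The other genes of the goblet programme were taken from 3 lists, on the same tests. Of 10 goblet transcription factors, 8 were lower in assembloids than in tissue over all epithelial cells (23.3% of all genes) and 6 in gated cells (23.9% of all genes), and none was higher, while 7 were lower in organoids than in tissue (23% of all genes). In organoids against assembloids 3 were lower and 3 higher, near the shares of all genes (29.1% and 24.8%). The lower ones were Creb3l1 (log2 difference -2.75), Spdef (-1.99) and Klf4 (-1.28). The higher ones were Atoh1 (1.56), Foxa2 (1.41) and Foxa3 (1.20), and all of these are named here after their values were seen. In that comparison 8 of the folding list below were lower and 3 higher, and of the further products 6 were lower and 3 higher. Creb3l1, a factor of the secretory pathway, stood at 169 and 217 CPM in gated assembloid cells against 645 and 611 CPM in tissue (log2 difference -1.10, SE 0.16), and Klf4, which goblet cells need to mature, at 137 and 146 CPM against 428 and 474 CPM (-1.06, SE 0.15). Of 24 genes for mucin folding, glycosylation and secretion, 23 were tested, with 13 lower in assembloids and 16 lower in organoids than in tissue over all epithelial cells (23.3% and 23% of all genes) and none higher (27.0% and 24.4% of all genes). In gated cells 8 were lower and 4 higher, beside 23.9% and 26.7% of all genes, among the latter the chaperone Hspa5 at 1072 and 1309 CPM against 729 and 917 CPM (log2 difference 1.14, SE 0.19), while Pdia3 did not pass (0.37, SE 0.16). The medians in gated cells were -1.08 for the factors and -0.08 for the folding list.

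Of 18 further secreted products, 14 were tested over all epithelial cells, where 6 were lower and 2 higher in assembloids than in tissue (23.3% and 27.0% of all genes), and 11 in gated cells, where 4 were lower and 3 higher (23.9% and 26.7% of all genes). Mptx1, a pentraxin, was the extreme case. It stood at 29991 and 34436 CPM in gated tissue cells, above Muc2, at 35.9 and 782 CPM in gated organoid cells and at 0 UMIs in gated assembloid cells, where 3 counts would be 0.906 and 0.480 CPM. Lypd8, a colonocyte product that acts on flagellated bacteria, stood at 950 and 1077 CPM in gated assembloid cells against 1264 and 1498 CPM in tissue. Its fitted log2 difference there, after TMM scaling, was 0.16 (SE 0.18) and not called. Over all epithelial cells it was called lower in assembloids, at 1283 and 1742 CPM against 4580 and 4677 CPM (log2 difference -1.25, SE 0.34, edgeR adjusted p = 0.0152).

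Over the 6 libraries the gene whose level followed the mean profile of the 10 products most closely was Guca2a, the hormone precursor guanylin, at a root mean square distance of 0.31 on the log2 scale among 4214 genes compared. It read 79.9 and 135 CPM in assembloids, 12.1 and 17.4 CPM in organoids and 1630 and 1945 CPM in tissue. Muc3, a membrane-bound mucin, followed at 0.78, then Ggh at 0.97, Fosb at 1.04 and Creb3l1 at 1.05. Of the 10 products themselves, Fcgbp was nearest to the profile at 0.37 and Zg16 furthest at 2.20. Within tissue, the 5 other genes most enriched in gated cells were Ccn3, Mptx1, Gm1123, Clps and Tpsg1, at 19.1 to 22.8 times the level outside the gate in the library where each was less enriched. Muc2, which set the gate, was at 29.6 times and Klk1 at 3.04 times.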

How the data were processed

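Epithelial cells of mouse colon tissue, assembloids and organoids were profiled in 6 libraries by 10x Genomics 3′ v3 chemistry. Raw UMI counts, as the authors deposited them for each barcode, came from Cell Ranger (version 7.1.0 in the file headers, version 6 and mm10 in the submitters' processing notes) with no normalisation. Whether intronic reads were counted is not given in the sources used here. Only uniquely placed reads are counted by this tool, so genes with near-identical relatives can be undercounted.

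Barcodes below 500 genes or above 10% mitochondrial UMIs were dropped, limits the study gives for its stromal cells. Its filter of epithelial cells is not given in the sources used here and left fewer assembloid and more tissue cells. Cells with markers of non-epithelial types were removed. No doublet caller was run, and leaving out the 6% deepest cells stands in as an alternative. Goblet-gated cells had at least 2000 UMIs and at least 1% Muc2 plus Spink4. Krt20 cells had at least 2 Krt20 UMIs that made at least 0.02%, and cycling cells at least 2 Mki67 or Top2a UMIs that made at least 0.05%. Counts were summed per library and tested in edgeR 4.0.16 (quasi-likelihood, filterByExpr, TMM) with Benjamini-Hochberg adjustment over all genes. Libraries with under 20 gated cells entered no gated fit, which left assembloids and tissue. Detection shares and correlations across cells used cells thinned to 2000 UMIs. Fits were tested on simulated data. DESeq2 1.42.0, Python 3.11.15 and R 4.3.3 were used, and other gates, limits, scalings and left-out libraries were tried.

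All 10 products are reported, with counts and the 2 highest genes of each list, the 5 genes nearest to their mean profile and the 5 most enriched in gated tissue cells. The members, lists and gates were chosen with earlier results of these data known. Libraries with the same number were not paired by any label.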

Additional observations from a re-analysis of the deposited data

How the results depend on the processing

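Of the values for single products, 600 kept direction and side of the threshold under the alternatives, 21 lost and 2 gained the call, and 1 changed sign (Agr2 in gated cells, -0.58 under the gate on other goblet genes). The count of all genes called ranged over left-out libraries from 5542 to 10442 for assembloids against tissue (9734 in full), from 5351 to 9772 for organoids against tissue (9159 in full) and from 3301 to 7153 in gated cells (6619 in full), lowest without tissue library 1 in each. In gated cells it was 3479 after thinning and 2445 under the gate on other goblet genes, where the fit had fewer cells. Of the 6 products lower in gated assembloid cells, Fcgbp lost its call under 6 alternatives and Zg16 under 1. The 2 products higher in gated assembloid cells became 1 under 5 alternatives, where Agr2 lost its call. Among these were library size alone, a gate at 0.5% and at most 5% mitochondrial UMIs. The products called higher became 0 under the gate on other goblet genes. There 1 product in 2 and 5 organoid cells, not 4, was lower in organoids than in assembloids, with no share of all genes taken under that gate. The gated share was 0.491% in assembloids, 0.0752% in organoids and 15.0% in tissue under that gate. With a gate at 0.5% it was 5.11% in assembloids, 0.652% in organoids and 40.7% in tissue, and at 2% it was 1.69%, 0.107% and 20.5%. With a gate on Muc2 alone it was 1.32%, 0.0863% and 26.4%. It was 38.5% and 20.4% in tissue with at most 5% and 20% mitochondrial UMIs, and 0.228% in organoids with at least 1000 UMIs. Keeping gated cells among the Krt20 cells, an alternative chosen after seeing the data like the gate on Muc2 alone, raised the median background over the 8 products from 2.01% to 2.51% of the gated level in assembloids and from 5.34% to 20.2% in tissue. The causes were not tested.

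No label ties libraries of the same number to each other, and their deviations from the group means correlated at -0.02 to 0.07. With the replicate number as a block, 9609 genes were called for assembloids against tissue, 8995 for organoids against tissue, 10271 for organoids against assembloids and 6639 in gated cells, and no call of a product changed. Gated counts were lowest for Zg16 and Clca1 in organoids. There the 12 and 16 gated cells held 2 and 1 UMIs of Zg16 and 25 and 3 UMIs of Clca1.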
